A study of Mus musculus with 1078 samples.

Results

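The T cells of GL261 tumors were compared between an anti-PD1-treated and a control CD3-positive plate. GL261 is a mouse glioma line of the C57Bl/6 background, grown here in the brains of C57Bl/6 mice, and per the study's methods male and female mice a few weeks old were used. The anti-PD1 group received the antibody clone RMP1-14 at 200 µg per mouse in 3 doses, 1 every 3 d. The control group is labelled ctrl, and the methods give an IgG antibody and phosphate-buffered saline for control mice. Neither group received losartan, the blood pressure drug of the study's other plates. Single cells were sorted into plates by their surface proteins and read by full-length RNA sequencing (Smart-seq2). The members were the cells that the authors annotated as T cells on the CD3-positive plates, 88 from anti-PD1-treated and 79 from control tumors. The whole series held 330 T cells among 1078 cells. A narrower comparison took the T cells with Cd8a and Cd8b1 both at 0, which were 24 anti-PD1 and 32 control cells.

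T cells read antigen through the T cell receptor and the CD3 chains, and the coreceptors CD8 and CD4 divide them into mainly cytotoxic cells and helper or regulatory cells. PD-1, the product of Pdcd1, is an inhibitory receptor that appears on activated T cells and dampens receptor signalling when it meets its ligands, and anti-PD1 antibodies block that contact. Cells under long stimulation in tumors carry several such inhibitory receptors together, while costimulatory receptors of the TNF receptor family, such as 4-1BB (Tnfrsf9) and OX40 (Tnfrsf4), mark recent activation. Regulatory T cells, defined by the transcription factor Foxp3, restrain the other T cells.

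Each treatment had 1 CD3-positive plate and no label named an animal, so each side counts as 1 sample, there is no replicate check and no test, and an effect of treatment and a difference between plates cannot be told apart. Levels are given as TPM scaled to a sum of 100000 per cell (TP100K) and averaged over the cells of a plate. Shares of cells carry exact Clopper-Pearson 95% intervals, which cover counting error over the cells only. Read depth is unknown in TPM, and genes detected per cell stood in for it. Their median was 2064.5 (range 1034 to 3415) on the anti-PD1 plate and 2039 (1076 to 3601) on the control plate. At least 1 CD3 gene was above 0 in 87 of 88 and 78 of 79 cells. Of the sex-linked genes, Xist was above 0 in 2 cells of each plate, at no more than 0.052 TP100K. A Y-linked gene was above 0 without Xist in 48 of 88 and 47 of 79 cells. Eif2s3y, a Y-linked gene, was lower with anti-PD1 (6.10 against 13.8 TP100K). RNA of other cell types was present on both plates. The summed mean level of 16 microglia and macrophage markers was 222.3 TP100K with anti-PD1 and 148.95 TP100K in control (medians over cells 98.2 and 76.4), and any C1q gene was above 0 in 20.5% and 18.99% of the cells. Tmem119 and Emr1 were listed at 0 in every anti-PD1 cell and P2ry12 in every control cell. Dendritic cell and MHC class II genes summed to 17.4 TP100K with anti-PD1 and 47.1 TP100K in control, while the B cell, granulocyte, endothelial and glioma lists summed to at most 3.45 TP100K on either plate and the oligodendrocyte and astrocyte list to 28.6 and 28.3 TP100K. Apoe, a lipid carrier of macrophages, microglia and astrocytes, was at 86.9 against 20.4 TP100K (41.6% of the anti-PD1 sum in 1 cell). The part of this RNA in the differences below was not tested.

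The anti-PD1 plate held more cells with a CD8 gene and fewer with Cd4. Cd8a or Cd8b1 was above 0 in 64 of 88 anti-PD1 cells (72.7%, 62.2 to 81.7) and in 47 of 79 control cells (59.5%, 47.9 to 70.4). Many of the control cells held traces of the CD8 genes, with 15 of the 47 at no more than 1 TP100K against 4 of the 64. Above 1 TP100K the shares were 68.2% (57.4 to 77.7) and 40.5% (29.6 to 52.1), and these intervals did not overlap. Cd4 was above 0 in 22 anti-PD1 cells (25%, 16.4 to 35.4) and in 44 control cells (55.7%, 44.1 to 66.9). On the losartan+anti-PD1 plate a CD8 gene was above 1 TP100K in 23.8% of the cells and Cd4 above 0 in 66.7%. On the losartan plate these shares were 6.58% and 65.8%. The other plate with the antibody thus differed from control in the opposite direction. Cells with both Cd4 and a CD8 gene above 0 numbered 6 on the anti-PD1 plate and 22 on the control plate, and at more than 1 TP100K of each they numbered 2 and 6. The authors' cluster 4 held 56 of the 88 anti-PD1 cells (63.6%) and 20 of the 79 control cells (25.3%), and cluster 0 held all others. Averages over all T cells therefore mix levels within a kind of cell with the numbers of each kind.

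Foxp3-positive cells made up a somewhat higher share of the anti-PD1 plate, within counting error. Foxp3 was above 0 in 13 of 88 anti-PD1 cells (14.8%, 8.11 to 23.9) and in 8 of 79 control cells (10.1%, 4.47 to 18.98), with overlapping intervals. Among cells with the CD8 genes at 0 the share was 10 of 24 (41.7%, 22.1 to 63.4) against 5 of 32 (15.6%, 5.28 to 32.8). Cells of this kind had Foxp3 above 0 in 4.84% of 62 cells on the losartan plate and in 15.4% of 52 on the losartan+anti-PD1 plate, so the anti-PD1 plate stood above the other 3. Il2ra, the high-affinity interleukin-2 receptor chain of regulatory and activated T cells, accompanied Foxp3 in all 10 of the anti-PD1 cells and in 4 of the 5 control cells.

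**Figure D1:**
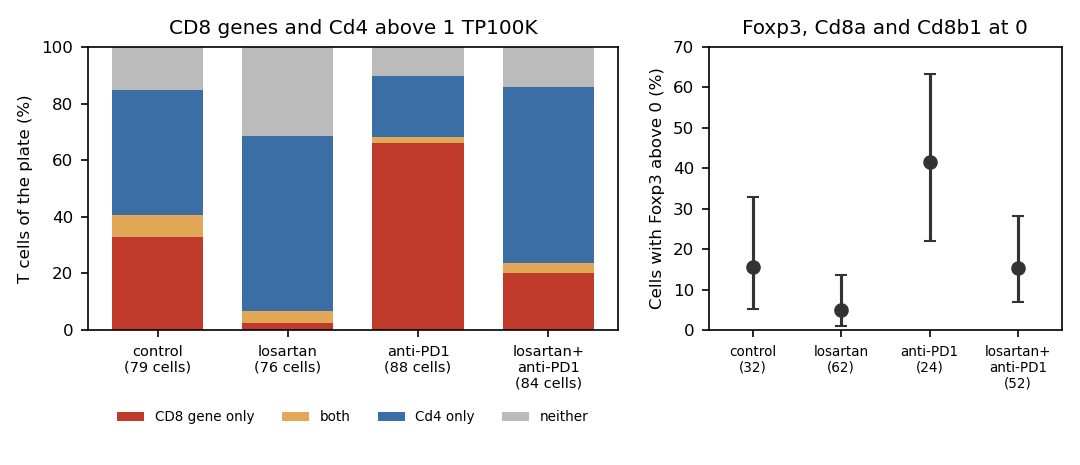
Left, share of the T cells on each of the 4 CD3-positive plates (percent) with Cd8a or Cd8b1 only, Cd4 only, both or neither above 1 TP100K. Right, share of the cells with Cd8a and Cd8b1 at 0 that had Foxp3 above 0 (percent, points) with exact 95% intervals (bars), the number of cells standing in brackets. Cells with a CD8 gene only made up 65.9% of the anti-PD1 and 32.9% of the control T cells.

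Over all T cells the anti-PD1 plate had higher levels of the NK-type receptors Klrk1 and Klrd1, of Cxcr6, Ltb and the integrin chains Itga1 and Itgb7, and lower levels of Tnfrsf9, Tnfrsf4, Bcl2, Socs3 and several inhibitory receptors. Genes were compared by the log2 ratio of their mean levels, anti-PD1 over control, with 1 TP100K added to each, among 3247 genes that were detected (above 0) on at least 1 of the plates in 25% of its cells or more. A ratio of at least 1 was counted as higher and of at most -1 as lower. By this measure 4.07% of the genes compared were higher and 4.1% were lower, and the median over all genes was 0.01. With cells scaled by their 75th percentile in place of their sum, 2.59% were higher and 8.28% lower, and the median of all genes moved to -0.18. No gene named below as past the limit changed direction under that scaling.

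Cxcr6, a chemokine receptor of tissue-resident and tumor-infiltrating T cells, was above 0 in 67 anti-PD1 cells (76.1%, 65.9 to 84.6) and in 28 control cells (35.4%, 25 to 47). Its mean was 156.3 against 36.1 TP100K (log2 ratio 2.09), and it was 60.7 with losartan and 67.9 with losartan+anti-PD1. The anti-PD1 plate was thus the highest and the control plate the lowest of the 4. Of the 18 chemokine receptors listed, 6 passed the filter, 4 with a ratio above 0, and their median was 0.93. Cxcr3, the receptor for interferon-induced chemokines, was at 45.8 against 24.02 TP100K (0.90), short of the limit of 1.

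NK-type receptors had the same direction throughout, with all 5 measured of 15 above 0 and a median of 0.85. Past the limit were 2 (40% of the 5, against 4.07% of all genes). Klrk1, the activating receptor NKG2D, was above 0 in 51 anti-PD1 and 13 control cells, with means of 36.9 and 4.70 TP100K (2.73). Klrd1, the CD94 chain that pairs with NKG2 receptors, was above 0 in 50 and 22 cells, with means of 115.2 and 23.4 TP100K (2.25). Both were found mainly in cells with a CD8 gene. Among cells with the CD8 genes at 0, Klrk1 was above 0 in 3 of 24 anti-PD1 and 4 of 32 control cells, and Klrd1 in 1 and 3. Within cluster 0 both ratios turned to -1.13. Anxa1, the anti-inflammatory annexin A1, followed the same pattern. It had the highest ratio of the 3247 genes (21.2 against 1.91 TP100K, 2.93), was above 0 in 24 anti-PD1 and 2 control cells and was listed at 0 in every cell of either plate whose CD8 genes were at 0.

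Adhesion genes leaned upward in cells with a CD8 gene above 0 only, with 16 of 18 ratios above 0 and a median of 0.39. With the CD8 genes at 0 it was 6 of 14 (-0.20). There 14.3% were past the limit upward and 21.4% downward, against 12.8% of all genes each way. Over all T cells 11 of 16 measured were above 0, 3 past the limit (18.75% of the 16, against 4.07% of all genes compared), and the median was 0.32. Itga1, the collagen-binding integrin chain CD49a of tissue-resident cells, was above 0 in 37 anti-PD1 and 4 control cells, at a low level (3.08 against 0.165 TP100K, 1.81). Itgb7, the beta chain of the gut-homing and E-cadherin-binding integrins, was above 0 in 60 and 27 cells (38.4 against 14.2 TP100K, 1.38). Among the 11 cytotoxic effector genes measured, 2 were higher, 2 were lower (18.2% each, against 4.07% and 4.1% of all genes) and the median was -0.03. Ctsw, a protease of cytotoxic lymphocytes, was higher (136.02 against 52.9 TP100K, 1.35), and the granzyme gene Gzmb was lower (54.6 against 168.8 TP100K, -1.61), a single control cell holding 27.5% of its control sum. Prf1, which encodes perforin, was level at 15.8 and 16.1 TP100K (-0.03), and Ifng, the interferon-gamma gene, was at 19.7 and 30.5 TP100K (-0.61).

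Ltb, which encodes lymphotoxin beta, a membrane cytokine of the TNF family, was higher whichever cells were taken. It was above 0 in 75 of 88 anti-PD1 cells (85.2%, 76.1 to 91.9) and in 46 of 79 control cells (58.2%, 46.6 to 69.2), with means of 169.04 and 46.7 TP100K (1.84). The losartan plate had 94.02 and the losartan+anti-PD1 plate 51.1 TP100K. Tnf, the related secreted cytokine, was at 35.9 against 11.5 TP100K (1.56), with 54.3% of the control sum in 1 cell. Il18r1, a chain of the interleukin-18 receptor, was at 13.5 against 3.16 TP100K (1.8), but the losartan plate reached 13.8 TP100K, so here it was the control plate that stood lowest.

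Tnfrsf9, the 4-1BB gene, had the lowest ratio of the 3247 genes. It was above 0 in 8 of 88 anti-PD1 cells (9.09%, 4.01 to 17.1) and in 30 of 79 control cells (38%, 27.3 to 49.6). Its mean was 2.59 against 30.04 TP100K (-3.11), and it was 32.9 with losartan and 57.2 with losartan+anti-PD1. The anti-PD1 plate therefore stood apart from all 3 others, the other plate with the antibody included. Tnfrsf4, the OX40 gene, was at 26.97 against 83.1 TP100K (-1.59). These were the 2 members past the limit of the regulatory and costimulatory list (18.2% of the 11 measured, downward, against 4.1% of all genes). Of the list, 8 had a ratio below 0 and 3 above, with a median of -0.31.

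Bcl2, the survival protein that blocks mitochondrial apoptosis, was above 0 in 9 anti-PD1 cells (10.2%, 4.78 to 18.5) and 39 control cells (49.4%, 37.9 to 60.9). Its mean was 3.40 against 23.6 TP100K (-2.49), with 20.9 and 14.03 TP100K on the losartan and losartan+anti-PD1 plates. Of the 7 BCL-2 family genes measured it was the only one past the limit, and their median was -0.31. Socs3, a feedback inhibitor of cytokine receptor signalling, was above 0 in 13 anti-PD1 cells (14.8%, 8.11 to 23.9) and 40 control cells (50.6%, 39.1 to 62.1). Its mean was 5.46 against 28.8 TP100K (-2.21), with 19.5 and 21.6 TP100K on the other plates. For both genes the anti-PD1 plate was the lowest and the control plate the highest of the 4. Dusp4, a phosphatase of MAP kinases induced by receptor signalling, was at 0.6002 against 10.002 TP100K (-2.78), and Maf, a transcription factor of helper and dysfunctional T cells, at 0.891 against 8.53 TP100K (-2.33).

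Of 24 inhibitory receptor and dysfunction genes, 15 passed the filter and 12 had a ratio below 0, with a median of -0.99. Past the limit were 7 downward (46.7% of the 15, against 4.1% of all genes compared) and 1, Cd96, upward (6.67%, against 4.07%). Pdcd1, the target of the antibody, was above 0 in 43 of 88 anti-PD1 cells (48.9%, 38.1 to 59.8) and in 50 of 79 control cells (63.3%, 51.7 to 73.9). Its mean was 29.3 against 67.2 TP100K (-1.17). The losartan plate had 68.4 and the losartan+anti-PD1 plate 47.1 TP100K, so the anti-PD1 plate was the lowest. Lag3, an inhibitory receptor that binds MHC class II, was at 26.6 against 74.1 TP100K (-1.45) though above 0 in 45.5% and 49.4% of the cells, so the level and the share of positive cells parted. Ctla4, which competes for B7 ligands, was at 32.03 against 87.2 TP100K (-1.42). Tigit and Havcr2 (TIM-3) were lower by less than the limit (-0.85 and -0.84), and Tigit was above 0 in more anti-PD1 cells (61.4%) than control cells (51.9%). Lilrb4 (-2.20) and Gp49a (-2.35), paired myeloid-type receptors, are near-identical copies between which reads may be split, so each value alone is uncertain. Cd96, a nectin-family receptor, was at 24.1 against 8.80 TP100K (1.36). Within cluster 4 the median of the list was 0.50.

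**Figure D2:**
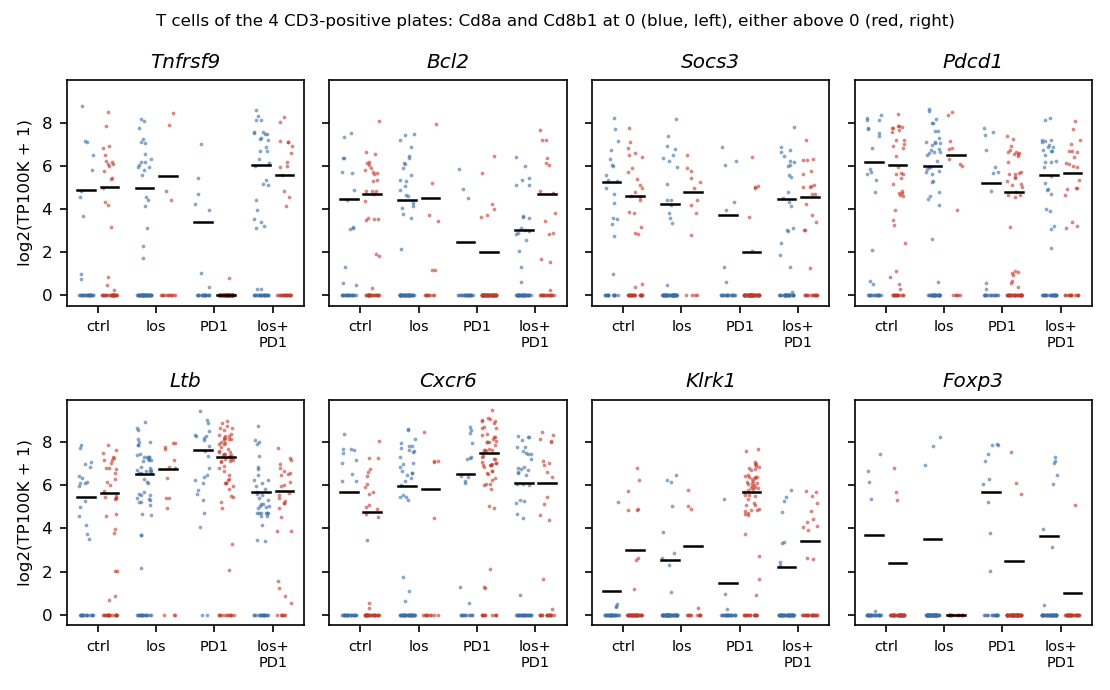
Level of 8 genes in each T cell of the 4 CD3-positive plates, as log2 of TP100K plus 1, with cells whose CD8 genes were at 0 in blue on the left of each plate and cells with Cd8a or Cd8b1 above 0 in red on the right. Bars give log2 of the mean TP100K plus 1. Tnfrsf9, Bcl2 and Socs3 had most anti-PD1 cells at 0, Ltb was high in both kinds of anti-PD1 cell, and Klrk1 was high in the red anti-PD1 cells (75% above 0, mean 50.05 TP100K).

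Other groups of genes differed less. MHC class I and peptide loading genes had 18 of 22 ratios above 0 and a median of 0.38, with none past the limit, H2-K1 and H2-D1 reaching 0.77 and 0.76. Heat shock genes had 13 of 15 above 0 (median 0.41) and immediate early genes 19 of 27 (0.21). Ribosomal proteins of the cytosol had 38 of 50 below 0 (-0.17), glycolysis and hypoxia genes 11 of 13 (-0.27) and cytokine receptor signalling genes 16 of 22 (-0.25). Interferon-induced genes split into 12 above and 22 below 0 (-0.15). Ly6e was the member past the limit upward (182.01 against 82.8 TP100K, 1.13), and Isg15 was lower (9.81 against 22.7 TP100K, -1.13). Mki67, the proliferation marker, was above 0 in 4 anti-PD1 and 8 control cells and did not pass the filter.

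**Figure D3:**
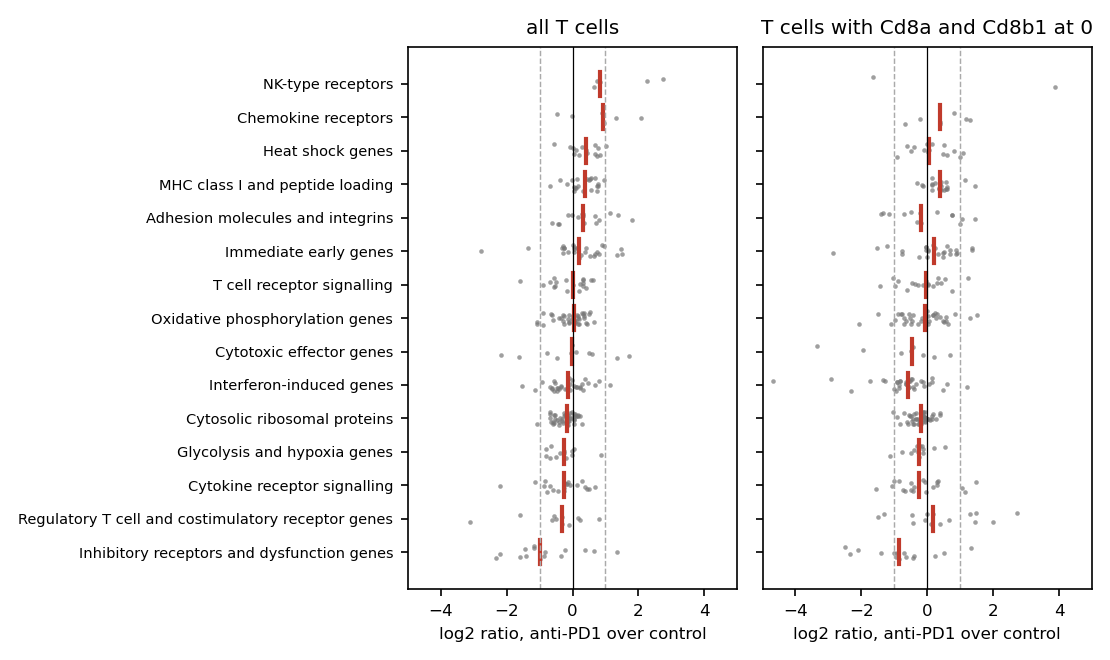
Log2 ratio of mean level, anti-PD1 over control, of each list member that passed the filter (gray points) and the list median (red bar), over all T cells on the left and over cells with Cd8a and Cd8b1 at 0 on the right. Dashed lines stand at 1 and -1. Of the lists drawn, the inhibitory receptor and dysfunction genes had the lowest median in each panel (-0.99 and -0.85).

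Among the T cells with Cd8a and Cd8b1 at 0 the anti-PD1 plate had higher levels of Foxp3, Il2ra, Klrg1 and Ltb and lower levels of Bcl2, Casp1, Fasl, Nkg7, Isg15 and part of the inhibitory receptor list. All 24 anti-PD1 and 30 of the 32 control cells of this kind lay in cluster 0. Cd4 was above 0 in 66.7% and 68.8% of them, so these shares were close. The level of Cd4 was not, at 33.7 against 68.7 TP100K, a ratio just past the limit downward, and the anti-PD1 plate was the lowest of the 4. The share with Foxp3 above 0 was 41.7% against 15.6%, with overlapping intervals. Close shares by cluster and Cd4 detection thus do not make the cells of the plates alike in kind. Of the dendritic cell and MHC class II genes, 3 passed the filter, all below 0, with Cd74 and H2-Ab1 past the limit and a median of -1.09, and the list summed to 31.1 against 54.8 TP100K (medians over cells 0.22 and 0.964). The part of that RNA was not tested. Many more genes were past the limit than over all T cells. There were fewer cells and another mix of cells, and the part of each was not tested. Of 3615 genes, 464 were higher (12.8%) and 463 lower (12.8%), and 21 of these were listed at 0 on one of the plates. A count of list members past the limit has to be read against those shares.

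Several regulatory T cell genes were on the upward side, although the list as a whole stood close to 0. Of 15 genes of the regulatory and costimulatory list measured, 10 had a ratio above 0, with a median of 0.17. Past the limit were 5 upward and 2 downward (33.3% and 13.3% of the 15), against 12.8% of all genes each way. Foxp3 was at 50.2 against 11.9 TP100K (1.99), with 10.5 and 11.6 TP100K on the losartan and losartan+anti-PD1 plates. Il2ra was at 25.7 against 8.55 TP100K (1.48), although 11 of 24 and 15 of 32 cells were above 0, so the positive anti-PD1 cells held more of it. Il1rl1, the interleukin-33 receptor ST2 of tissue regulatory T cells, was at 6.64 against 0.154 TP100K (2.73). Klrg1, an inhibitory lectin receptor of terminally differentiated effector and regulatory cells, was at 35.8 against 1.53 TP100K (3.86), in 6 and 2 cells. Within the Foxp3-positive cells (10 against 5) the ratios were 1.56 for Il2ra (61.5 against 20.2 TP100K), 3.02 for Klrg1 (85.9 against 9.71 TP100K) and 3.20 for Il1rl1 (15.9 against 0.835 TP100K). Klrg1 was above 0 in 6 and 1 and Il1rl1 in 5 and 1 of these cells. The control value of each thus rested on 1 cell, and the intervals of the shares overlapped. Without those cells (14 anti-PD1 and 27 control cells remaining, a choice made after seeing the data), the ratio of Il2ra was -2.81, that of Klrg1 -0.02 and the median of the list -1.07.

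Ltb was above 0 in 22 of 24 anti-PD1 cells (91.7%, 73 to 98.97) and in 17 of 32 control cells (53.1%, 34.7 to 70.9). Its mean was 197.3 against 42.9 TP100K (2.17), beside 91.4 and 50.9 TP100K on the other plates. Cd27, a costimulatory receptor of naive, memory and regulatory cells, was above 0 in 15 and 8 cells (36.8 against 10.7 TP100K, 1.70). Gata3, a transcription factor of type 2 helper and tissue regulatory cells, was at 26.2 against 8.38 TP100K (1.53). Chemokine receptors had 5 of 7 ratios above 0 and a median of 0.38. Cxcr3 (60.4 against 23.8 TP100K, 1.31) and Ccr2, the receptor for monocyte chemoattractants (27.3 against 11.4 TP100K, 1.19), were past the limit, and Cxcr6 was not (89.5 against 50.3 TP100K, 0.82). MHC class I and peptide loading genes again had most ratios above 0 (19 of 22, median 0.38), and the peptide transporter gene Tap1 (48.4 against 21.4 TP100K, 1.14) and the immunoproteasome gene Psmb10 (27.8 against 9.61 TP100K, 1.44) were past the limit. That is 9.09% of the 22, below the 12.8% higher among all genes compared.

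Inhibitory receptor and dysfunction genes were lower in these cells as well, with 12 of 15 ratios below 0 and a median of -0.85. Past the limit were 5 downward (33.3% of the 15) and 1 upward (6.67%), against 12.8% of all genes each way. Pdcd1 was above 0 in 10 of 24 anti-PD1 and 17 of 32 control cells (36.3 against 71.5 TP100K, -0.96). Lag3 was at 30.9 against 83.6 TP100K (-1.41), 45.6% of the control sum standing in 1 cell. Bhlhe40, a transcription factor of cytokine-producing and resident T cells, was above 0 in 5 and 15 cells (3.49 against 24.2 TP100K, -2.49). The differences of Ctla4 (-0.65) and Tigit (-0.40) were smaller than over all T cells. Both are also genes of regulatory T cells. Without the Foxp3-positive cells (14 against 27 remaining, a choice made after seeing the data) their ratios were -1.71 and -2.34. Within the Foxp3-positive cells (10 against 5) the ratios were -0.68 and 0.34. The part of those cells in the smaller differences was not tested.

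Cytotoxic effector genes, which some CD4 cells also express, had 6 of 8 ratios below 0 and a median of -0.46. Past the limit were 2 downward (25% of the 8, against 12.8% of all genes), a share that rests on those 2 genes. Fasl, the death ligand, was above 0 in 2 anti-PD1 and 10 control cells (1.57 against 25.03 TP100K, -3.34). Nkg7, a cytotoxic granule membrane protein, was at 41 against 160 TP100K (-1.94), while 256.7 and 552 TP100K were measured on the losartan and losartan+anti-PD1 plates. Ifng was at 1.16 against 32.7 TP100K and Prf1 was listed at 0 in the 24 anti-PD1 cells against 11.5 TP100K in control (81.6% of it in 1 cell), and neither passed the filter.

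Interferon-induced genes had 29 of 35 ratios below 0 and a median of -0.58. Past the limit were 7 downward (20% of the 35) and 1 upward (2.86%), against 12.8% of all genes each way. Ifit1, which binds viral RNA, was listed at 0 in all 24 anti-PD1 cells and was above 0 in 9 of 32 control cells, with a mean of 24.8 TP100K. Isg15, a ubiquitin-like protein, was at 3.21 against 30.985 TP100K (-2.93) and Rtp4 at 4.34 against 25.4 TP100K (-2.31). Ly6e went the other way (218.85 against 94.8 TP100K, 1.2). The direction of the list depended on the cells taken. In the 16 anti-PD1 and 22 control cells that also had Cd4 above 0 its median was 0.28. Casp1, the inflammasome protease, was above 0 in 1 anti-PD1 and 14 control cells (0.0505 against 22.99 TP100K, -4.51).

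Outside the lists, the upper end held several genes detected in a few cells. Hadh, a mitochondrial enzyme of fatty acid oxidation, was above 0 in 9 of 24 anti-PD1 cells with a mean of 19.6 TP100K and was listed at 0 in all 32 control cells. Izumo4, a member of the IZUMO family known from sperm-egg fusion, was above 0 in 8 and 1 cells (15.02 against 0.252 TP100K, 3.68). At the lower end Med21, a subunit of the Mediator complex, was listed at 0 in all anti-PD1 cells and was above 0 in 8 control cells, with a mean of 19.5 TP100K. A share of 0 of 24 cells allows up to 12.5% by a limit of 3 cells and up to 14.2% by the exact interval, so these are differences at the edge of what the cell numbers show.

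Cells with Cd8a or Cd8b1 above 0 (64 anti-PD1 and 47 control cells) were set beside them to see which differences stood in both kinds of cell. Their place in the clusters differed between the plates, and 56 of the 64 anti-PD1 cells (87.5%) lay in cluster 4 and 29 of the 47 control cells (61.7%) in cluster 0. Over all T cells, Tnfrsf9, Bcl2, Socs3 and Ltb were past the limit in the same direction within each cluster. Of 3515 genes in these cells, 7.2% were higher and 6.06% lower. Among the 2922 genes that passed the filter in both, 36 were higher in both. That is 7.76% of the genes higher with the CD8 genes at 0, beside 7.2% of all genes in cells with a CD8 gene above 0. It is 14.2% of the genes higher with a CD8 gene above 0, beside 12.8% of all genes in cells without. A further 45 were lower in both (9.72% beside 6.06%, and 21.1% beside 12.8%), and 42 of the 2922 were past the limit in opposite directions. The percentages of overlap were taken over all higher or lower genes of a kind of cell, not only those among the 2922. Genes outside the 2922 could not be counted in the overlap. The percentages are thus not like for like with the shares beside them. Whether the overlap exceeded those shares, upward or downward, was not tested. Both comparisons rest on the same pair of plates. The anti-PD1 plate was the highest of the 4 in both kinds of cell for 21 of the 36 and the lowest for 32 of the 45. Over all genes compared it was the highest for 33.4% without and 25.6% with a CD8 gene above 0, and the lowest for 29.1% and 21.4%. Those are shares in each kind of cell alone, not in both together. The 36 and 45 genes were chosen by their ratio to the control plate, which makes an extreme more frequent by that choice alone.

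The genes lower in both included Tnfrsf9, Bcl2, Socs3, Dusp4, Lag3, Slamf6, Fyn and Jak2. Bcl2 was above 0 in 3 of 24 anti-PD1 and 14 of 32 control cells without the CD8 genes (4.47 against 21.3 TP100K, -2.03) and in 6 of 64 and 25 of 47 cells with them (2.99 against 25.2 TP100K, -2.71). Socs3 was above 0 in 7 and 18 cells without the CD8 genes (-1.56) and in 6 and 22 with them (-2.59). The shares of Bcl2-positive and Socs3-positive cells were thus lower in both kinds of anti-PD1 cell. Their intervals were apart with a CD8 gene above 0 (Bcl2, 3.52 to 19.3 against 38.1 to 67.9, and Socs3, 3.52 to 19.3 against 32.1 to 61.9) and overlapped without. Tnfrsf9 differed between them. With a CD8 gene above 0 it was detected in 1 of 64 anti-PD1 and 20 of 47 control cells (0.0117 against 31.04 TP100K, -4.99). Without the CD8 genes the shares were close, at 7 of 24 and 10 of 32 (9.48 against 28.6 TP100K, -1.50), and 47.2% of the control sum stood in 1 cell. Slamf6, a receptor of memory-like T cells, had ratios of -1.51 and -1.14, in that order.

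The genes higher in both included Ltb, Il18r1, Ccr2, Itgb7, Ly6e, Tnf and Izumo4. Ltb had ratios of 2.17 without and 1.67 with the CD8 genes, Il18r1 1.83 and 1.85, and Itgb7 1.07 and 1.57. For Ltb and Il18r1 the anti-PD1 plate was the highest and the control plate the lowest of the 4 in both kinds of cell. Tnf in the cells without the CD8 genes (29.4 against 3.22 TP100K, 2.85) rested on 1 anti-PD1 cell that held 67.3% of the sum.

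**Figure D4:**
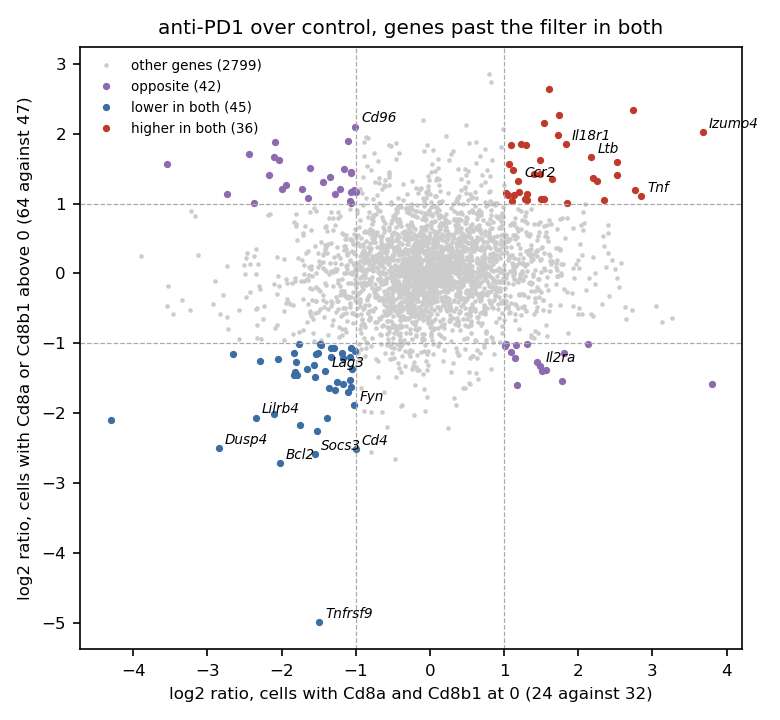
Log2 ratio of mean level, anti-PD1 over control, in cells with Cd8a and Cd8b1 at 0 (horizontal axis) against cells with Cd8a or Cd8b1 above 0 (vertical axis) for the 2922 genes that passed the filter in both. Red, blue and purple points are genes past 1 or -1 (dashed lines) in both, and the 45 blue genes at the lower left include Tnfrsf9, Bcl2 and Socs3.

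Because trace levels put some control cells in the CD8 class, the same genes were read with both kinds of cell set at 1 TP100K. In cells with a CD8 gene and without Cd4 (58 anti-PD1 and 26 control cells), Bcl2 was above 0 in 5 and 17 cells (1.83 against 41.4 TP100K, -3.91) and Tnfrsf9 in 1 and 7 cells (0.0129 against 8.19 TP100K, -3.18). Pdcd1 (-1.02) and Ctla4 (-1.61) were lower there, Lag3 (0.08) and Tigit (0.13) were level and Havcr2 was higher (1.47), so the lower inhibitory receptors were not general to these cells. In cells with Cd4 and without a CD8 gene (19 anti-PD1 and 35 control cells), Bcl2 was above 0 in 1 and 14 cells (1.14 against 10.98 TP100K, -2.49) and the ratios were -2.08 for Tnfrsf9, -1.36 for Lag3, -0.90 for Pdcd1 and 1.96 for Ltb.

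The other CD3-positive plates give the only measure of the spread between plates, and each had another treatment and its own share of CD8 cells. Over all T cells the anti-PD1 plate was the highest of the 4 for 88.6% of the higher genes, against 27.7% of all genes compared, and the control plate was the lowest for 66.7%. The anti-PD1 plate was the lowest for 91% of the lower genes, against 28.1% of all genes, and the control plate was the highest for 55.6%. In the cells with the CD8 genes at 0 the anti-PD1 plate was the highest for 393 of 464 higher genes (33.4% of all genes) and the lowest for 380 of 463 lower genes (29.1%). Genes chosen for a large ratio between the anti-PD1 and control plates are more often at an extreme by that choice alone.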

How the data were processed

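Single CD45+CD3+ cells were sorted into plates, 1 per treatment, and read by Smart-seq2. Per the labels and the study's methods the authors aligned reads with Bowtie and quantified genes with RSEM (1.2.8 in the submitters' notes, which also name TopHat), kept cells with 1000 to 8000 genes, and deposited TPM values, which summed to 1000000 in every CD3-positive cell. For the CD45 sorts the deposited values were estimated counts, and these entered 1 alternative only. Cell type labels and cluster numbers were the authors' annotation. Treatments came from the labels.

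TPM were divided to a sum of 100000 per cell, averaged per plate and compared as log2 ratios with 1 added, among genes detected in 25% or more of the cells on 1 or both plates, with Python 3.11.15, pandas 2.3.3 and SciPy 1.17.1. The code was tested on simulated data. TPM keep no read depth, so a 0 may be a missed transcript. A log2 ratio with 1 added understates changes of low genes. Doublets were not called, and no 2 cells had identical values. Named genes were the 10 highest and 10 lowest ratios in a comparison whose mean ln level moved the same way, up to 4 members of each of 32 gene lists, and fixed defining genes. The cells and lists were chosen with earlier results of these data known. No test was run, since each side was 1 plate. Pseudocounts, filters, scalings and the cells taken were varied.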

Additional observations from a re-analysis of the deposited data

Results flagged for a closer look

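The costimulation and signalling genes Cd226, Cd96, Il2ra and Samsn1 were past the limit in opposite directions in cells with Cd8a and Cd8b1 at 0 and cells with Cd8a or Cd8b1 above 0. They were picked as the members of the gene lists among the 42 genes with opposite directions, of 2922 that passed the filter in both kinds of cell. Of all genes compared, 12.8% were higher and 12.8% lower without the CD8 genes, and 7.2% and 6.06% with them. The number opposite by those shares alone was not computed, so the 42 are not read as an excess. Tfg, a named gene outside the lists, was also opposite (3.80 and -1.59). The differences between the kinds of cell were not tested, and the cause was not tested. Cd226, an activating receptor for nectin-family ligands, had a log2 ratio of -1.64 (2.94 against 11.3 TP100K) without the CD8 genes and 1.08 (22.04 against 9.91 TP100K) with them. Cd96, which shares ligands with Cd226, had -1.01 (5.58 against 12.2 TP100K) and 2.10 (31.03 against 6.46 TP100K). Il2ra had 1.48 (25.7 against 8.55 TP100K) and -1.32 (1.74 against 5.85 TP100K), and Foxp3 was above 0 in 41.7% of the anti-PD1 and 15.6% of the control cells without the CD8 genes. Samsn1, an adaptor of lymphocyte signalling, had 1.44 (47.04 against 16.7 TP100K) and -1.26 (9.48 against 24.1 TP100K).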

How the results depend on the processing

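No paired analysis was possible because each treatment has 1 CD3-positive plate. Every value rests on 1 plate a side, on 24 and 32 cells where the CD8 genes were at 0, and on TPM without depth, so a transcript missed in a cell cannot be told from an absent one. Of the named genes past the limit over all T cells, 45 of 54 had the same direction in all 15 alternatives, and Bcl2, Gp49a, Izumo4, Lilrb4, Ltb, Socs3, Tnfrsf9 and Vrk3 were past the limit in all 15. With the CD8 genes at 0, 73 of 79 had the same direction in all 14 alternatives and 28 were past the limit in all, Bcl2, Ltb, Casp1, Fasl, Isg15 and Nkg7 among them. The cause of the changes below was not tested.

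The number of genes past the limit changed by more than 1.5 times, in 1 or both directions, under these settings. Over all T cells the shares higher and lower were 7.79% and 7.33% with 0.1 TP100K added, 0.77% and 0.462% with 10 added, 5.7% and 5.49% of 7175 genes with a filter of 10% of cells, 3.26% and 2.4% of 1043 with 50%, 4.76% and 4.74% of 13682 with none, and 2.59% and 8.28% with scaling by the 75th percentile. They were 12.4% and 9.46% within cluster 4 (56 and 20 cells) and 9.38% and 9.02% within cluster 0 (32 and 59 cells), and 1.79% were lower by the difference of mean ln values. With the CD8 genes at 0 they were 1.99% and 1.94% with 10 added, 15.2% and 15.5% of 6977 with a filter of 10%, 7.93% and 6.06% of 1122 with 50%, 14.1% and 14.6% of 11785 with none, and 5.23% and 4.7% by mean ln values.

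List medians over all T cells that moved were those of effector cytokines (-0.72 with a filter of 10%, -0.41 with none, 1.63 by mean ln values, -0.50 within cluster 0), helper genes (-0.059 with a filter of 10%, -0.15 with none and -0.27 within cluster 0), chemokine receptors (-0.052 with no filter), and, with a filter of 50%, cytotoxic genes (0.58) and NK-type receptors (2.25). Within cluster 4 the medians were 0.50 for inhibitory, -0.56 for naive and memory and 0.61 for regulatory and costimulatory genes. With the CD8 genes at 0, BCL-2 family genes had -0.25 with 10 added, 0.023 with no filter and -0.16 in cells with 1500 to 3000 genes, effector cytokines -0.64 with a filter of 10% and -0.41 with none, helper genes 1.53 with a filter of 50% and cell cycle genes -0.84 with none. In cells with Cd4 above 0, effector cytokines had 1.17, chemokine receptors 0.99, interferon-induced genes 0.28 and cell cycle genes -0.81. Without Foxp3-positive cells, an alternative chosen after seeing the data, effector cytokines had 0.85, inhibitory genes -1.61, regulatory and costimulatory genes -1.07 and interferon-induced genes -1.21.

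Reversed ratios over all T cells were Birc5 at 0.032 in cells with 1500 to 3000 genes, and within cluster 4 Birc5 at 0.021, Cd4 at 0.86, Lag3 at 0.23 and Maf at 0.0038. Within cluster 0 they were Anxa1 at -1.76, Cd8a at -0.25, Cd8b1 at -0.036 and Klrd1 and Klrk1 at -1.13. With the CD8 genes at 0, Birc5 was at 0.023 without the highest cell of each plate and 0.088 in cells with 1500 to 3000 genes, Dusp5 at 0.021 and Slamf1 at 0.80 with up to 1 TP100K of the CD8 genes allowed, and Il2ra at -2.81 and Klrg1 at -0.019 without Foxp3-positive cells. The control share of CD8 cells was 40.5% above 1 and 35.4% above 10 TP100K.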
